A study of Caenorhabditis elegans with 2 samples.

Results

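Cuticle collagen genes were examined for SNPC-4 binding near their 5′ ends in whole L3 larvae of *Caenorhabditis elegans*. The members were defined by symbol alone, in a rule set with earlier results of these data known. They were the 156 protein-coding genes named col- with a number, and 13 collagen genes known by a body-shape or blister name (*dpy-2*, *dpy-3*, *dpy-5*, *dpy-7*, *dpy-8*, *dpy-10*, *dpy-13*, *sqt-1*, *sqt-2*, *sqt-3*, *rol-6*, *bli-1* and *bli-2*). This gave 169 of the 19971 protein-coding genes on the nuclear chromosomes. Another 3 col- entries are annotated as pseudogenes and were left out.

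The cuticle is the extracellular coat of the worm. The epidermis beneath it makes the coat anew before each moult, and small collagens with Gly-X-Y repeats are its main protein. Collagen genes are transcribed by RNA polymerase II in waves within each larval stage, so that different collagens are made at different times of a moulting cycle. SNPC-4 is a subunit of SNAPc, a complex that binds upstream of small nuclear RNA genes and recruits RNA polymerase II or III there. In *C. elegans* SNPC-4 also acts at spliced leader genes and at piRNA genes.

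The study held 1 group with 2 biological replicates, both of strain OP179, genotype unc-119(ed3) III; wgIs179, as larvae of mixed sex. The labels describe an insertion that targets *snpc-4*, with enhanced GFP as the tag, name snpc-4 in the antibody field, and give no age in hours within the L3 stage. There was no untagged or untreated group, and the control alignment that the deposited readme files name was not analysed here. Binding in the epidermis and in other tissues cannot be told apart in whole larvae. A list of 2672 thresholded peaks was deposited, with a pooled list and 1 list for each replicate of 30000 regions each that hold peaks and background together. Each region carries the authors' signal value, whose unit is arbitrary and differs between lists, and which ran from 29.1 to 2235 over thresholded peaks. Ranks count from 1 at the strongest region of a list. Read counts are not part of these lists, and the depth behind each value is therefore unknown. No test of groups was possible. Shares over genes carry exact (Clopper-Pearson) 95% intervals, which cover counting error only and treat neighbouring genes as independent.

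Few cuticle collagen genes had a SNPC-4 peak, and the peaks that were found lay mostly nearer to another gene. A thresholded peak had its summit within 500 bp of the 5′ end of 5 of 169 collagen genes, or 2.96% (interval 0.967 to 6.77). Of all protein-coding genes, 8.94% had one. The 5 genes were *col-85*, *col-38*, *col-71*, *col-2* and *col-72*. None of the 13 members with a dpy, sqt, rol or bli name had one. The summits at the 5 genes lay 249 to 473 bp from the collagen 5′ end (median 439 bp), against a median of 199 bp (quartiles 128 and 293) over the 1785 protein-coding genes with a thresholded peak. At 1 of the 5, *col-72*, no other annotated 5′ end was nearer to the summit. When each peak was given to its nearest 5′ end alone, 0.592% of collagen genes and 6.02% of protein-coding genes had one, so part of the protein-coding genes also had their peak nearer to another gene.

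The sequences at the 5 peaks and at *col-94*, the member just below the threshold, show what lay under each summit. Each stretch was read from the RefSeq WBcel235 genome (the assembly that ce11 names), 5′ to 3′. The stretch at *col-85* is on the + strand and runs from 60 bases before the summit to the end of the tRNA gene *T21B4.t1*, which is in capitals (chrII:12494660-12494814). The other stretches are 121 bases centred on the summit, on the − strand, which is the strand of each collagen gene. They are chrII:8569475-8569595 for *col-38*, chrII:3502759-3502879 for *col-71*, chrIV:10085830-10085950 for *col-2*, chrII:3523664-3523784 for *col-72* and chrIII:10987795-10987915 for *col-94*. In these, capitals mark GAGAGAGA repeats (*col-2*) and TATAAA (*col-94*).
col-85: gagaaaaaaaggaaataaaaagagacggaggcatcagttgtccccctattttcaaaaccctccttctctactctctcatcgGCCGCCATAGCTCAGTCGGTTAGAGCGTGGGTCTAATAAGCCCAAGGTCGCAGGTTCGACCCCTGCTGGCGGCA
col-38: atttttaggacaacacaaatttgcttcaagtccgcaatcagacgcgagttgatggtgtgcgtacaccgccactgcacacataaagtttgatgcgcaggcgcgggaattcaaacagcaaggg
col-71: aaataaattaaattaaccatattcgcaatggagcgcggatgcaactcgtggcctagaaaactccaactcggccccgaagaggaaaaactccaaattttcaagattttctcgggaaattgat
col-2: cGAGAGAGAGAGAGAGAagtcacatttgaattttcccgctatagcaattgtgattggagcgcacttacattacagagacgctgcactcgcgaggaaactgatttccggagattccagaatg
col-72: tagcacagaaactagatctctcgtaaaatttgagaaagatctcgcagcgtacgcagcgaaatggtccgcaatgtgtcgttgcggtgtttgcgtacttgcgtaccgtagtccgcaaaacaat
col-94: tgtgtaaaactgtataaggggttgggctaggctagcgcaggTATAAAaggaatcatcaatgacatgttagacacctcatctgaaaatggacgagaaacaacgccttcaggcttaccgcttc

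*col-85* (T21B4.2; II, 12493703 to 12495095, − strand) had the strongest region of any member (II, 12494619 to 12494809). Its signal value was 142 in the pooled list (rank 174), 85.4 in replicate 1 (rank 155) and 67.6 in replicate 2 (rank 185). The summit lay inside an intron of *col-85*, 375 bp downstream of its 5′ end. The same intron holds *T21B4.t1*, an isoleucine tRNA gene of 74 bp on the opposite strand, and the summit was 21 bp upstream of the tRNA gene. The region held 1 match to the B box word (GGTTCGA, any 2 bases, then CC), the internal promoter element of tRNA genes, which lies within the capitals above. That word was present in 2.61% of the 2646 nuclear thresholded peaks. The short noncoding RNA genes *T21B4.19* and *T21B4.18* also start nearer to the summit than *col-85* does, with the summit at 142 and -168 bp from their 5′ ends (negative upstream).

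*col-38* (F54C9.4; II, 8568035 to 8569088, − strand) came next, with a region at II, 8569390 to 8569679. Its signal value was 74.6 in the pooled list (rank 567), 28.1 in replicate 1 (rank 1217) and 53.7 in replicate 2 (rank 261). In all 3 lists the summit was 447 bp upstream of *col-38*. It lay between *col-38* and *rpl-5*, which encodes a protein of the large ribosomal subunit and is transcribed away from it, with the summit 392 bp upstream of *rpl-5*. Within that gap the summit fell in the exons of 2 unclassified noncoding RNA genes, 27 bp into *F54C9.17* and 104 bp into *F54C9.16*. None of the 5 words searched for was found in the region.

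*col-71* (Y49F6B.10; II, 3500077 to 3502570, − strand) had a region at II, 3502674 to 3502963. Its signal value was 67.9 in the pooled list (rank 709), 29.1 in replicate 1 (rank 1144) and 39.1 in replicate 2 (rank 510). The summit was 249 bp upstream of *col-71* and 149 bp upstream of *Y49F6B.2*, a gene on the opposite strand whose product carries an Fcf2 pre-rRNA processing domain in the annotation. This was the nearest summit to a collagen 5′ end among the 5.

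*col-2* (W01B6.7; IV, 10084439 to 10085451, − strand) also shared its upstream gap with a neighbour. The region (IV, 10085745 to 10086034) had a signal value of 40.6 in the pooled list (rank 1699), 16.97 in replicate 1 (rank 2760) and 17.5 in replicate 2 (rank 2130). The summit was 439 bp upstream of *col-2* and 247 bp upstream of *ndc-80*, which encodes a kinetochore protein. The region held 5 overlapping matches to GAGAGAGA, a word present in 14.4% of nuclear thresholded peaks.

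*col-72* (W09G10.1; II, 3520703 to 3524197, − strand) was the weakest of the 5, and the only one with no other 5′ end within 1000 bp of its own. Its region (II, 3523579 to 3523868) had a signal value of 29.6 in the pooled list (rank 2624), 13.9 in replicate 1 (rank 3761) and 16.1 in replicate 2 (rank 2379). The summit lay in an intron, 473 bp downstream of the annotated 5′ end, which the annotation marks as partial. The next thresholded peak was 2132 bp away (II, 3521447 to 3521736, rank 2013), with its summit 34 bp upstream of the tRNA gene *W09G10.t1*.

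*col-94* (W05B2.1; III, 10986808 to 10987873, − strand) had the strongest region below the threshold (III, 10987710 to 10987999). Its signal value was 28.9 in the pooled list (rank 2693), against a lowest thresholded value of 29.1 at rank 2672. The replicates differed here, with signal 21.9 (rank 1840) in replicate 1 and 5.98 (rank 9322) in replicate 2. The summit was 18 bp downstream of the 5′ end, in an exon outside the coding sequence, the closest to a collagen 5′ end of the 6 genes shown. *col-94* lies in an intron of *dhc-4*, which encodes a dynein heavy chain. The thresholded peak of the snRNA gene *W05B2.8*, rank 2 in the list with signal 2125, had its summit 1770 bp away, and its part in the value at *col-94* was not tested. Of the positions around the *col-94* 5′ end, 69.6% start a 31-base word found once in the nuclear genome.

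**Figure D1:**
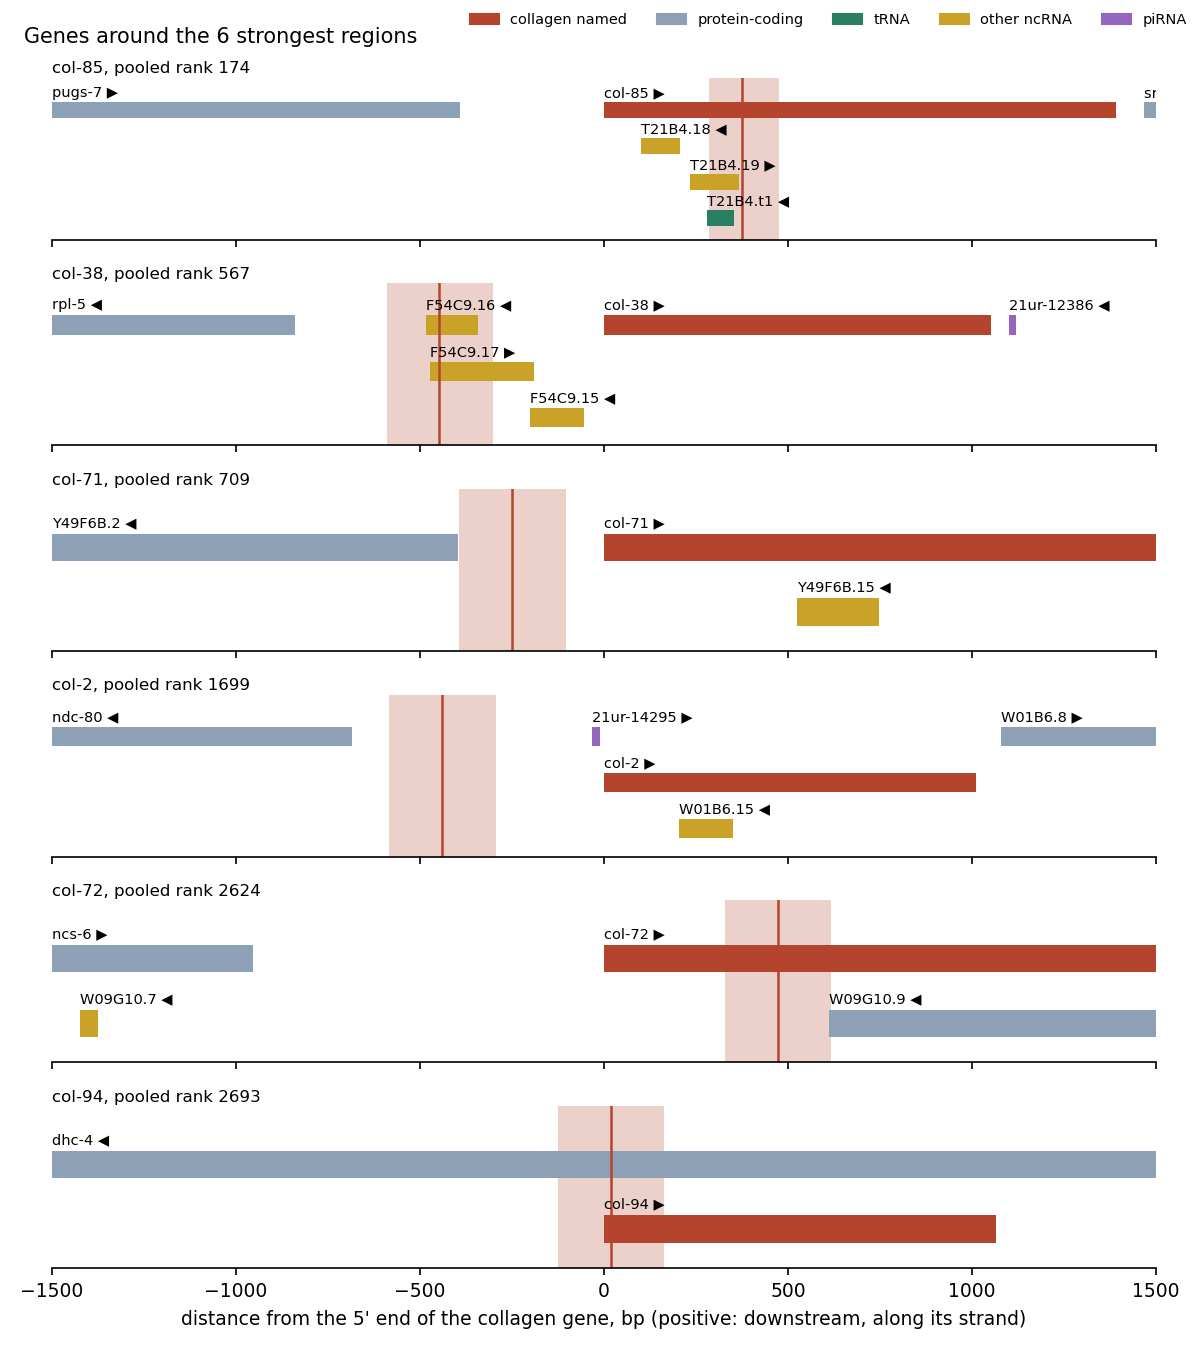
Annotated genes around the 6 strongest pooled regions at collagen genes, drawn to scale as distance in bp from the collagen 5′ end (horizontal axis, positive downstream); the shaded band is the region, the vertical line its summit, and arrowheads give the direction of each gene relative to the collagen gene. The summit is beside a tRNA gene at col-85, in the gap between 2 divergent genes at col-38, col-71 and col-2, inside the gene at col-72, and at the 5′ end at col-94.

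Over regions of any rank, the shares of collagen genes and of protein-coding genes were closer. A pooled region of any rank lay within 500 bp of 51 of 169 members, or 30.2% (interval 23.4 to 37.7), against 34.8% of protein-coding genes. Most of these regions were weak. The strongest region per member had a median rank of 14113 (quartiles 9388 and 19919.5), against 8637.5 (quartiles 2583 and 18122.2) over protein-coding genes with a region. In signal value the medians were 9.18 at collagen genes and 12.4 at protein-coding genes, on the scale of the pooled list. Among the 10000 strongest regions the share was 8.88% of collagen genes, against 18.9% of protein-coding genes. At a deposited q-value of at most 0.05, a limit set for this comparison, 8 collagen genes (4.73%) had a region, against 16.8% of protein-coding genes. The 3 of these 8 below the threshold were *col-94*, *col-10* and *col-108*.

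**Figure D2:**
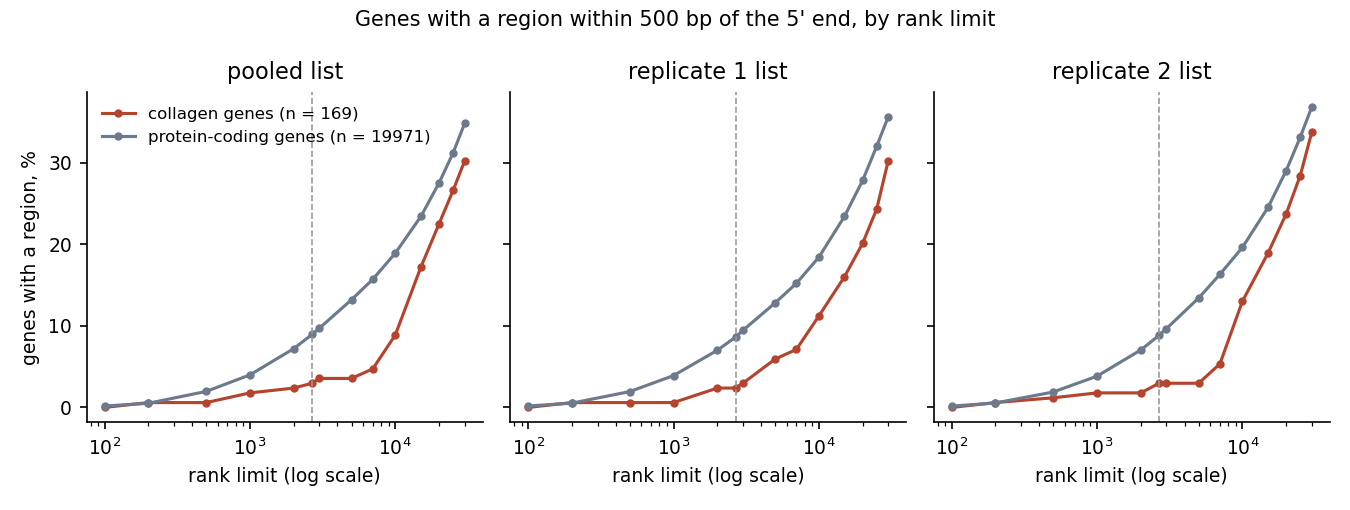
Percent of collagen genes (red, n = 169) and of all protein-coding genes (grey, n = 19971) with a region within 500 bp of the 5′ end (vertical axis) among the strongest regions up to each rank limit (horizontal axis, log scale), in the pooled list and in each replicate list; the dashed line marks rank 2672. At rank 2672 the pooled curves stand at 2.96% and 8.94%, and at the end of the list at 30.2% and 34.8%.

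The next members below *col-94* were far weaker. *col-10* (V, 9165273 to 9165562) had signal 16.1 at rank 5676 of the pooled list, 11.4 at rank 5252 in replicate 1 and 5.73 at rank 9937 in replicate 2, with the summit 111 bp upstream. *col-108* (IV, 1768271 to 1768560) had signal 14.9 at rank 6408, and 12.0 at rank 4820 in replicate 1, but no region in replicate 2. Its summit was 172 bp upstream. *col-133* and *col-125* followed at ranks 8138 and 8354, with summits 285 and 300 bp upstream, and both had a region in each replicate. The strongest replicate regions lay apart. Their summits in replicates 1 and 2 were at -122 and -431 bp for *col-133*, and at -489 and -131 bp for *col-125*. *col-111*, at rank 9117 with its summit 190 bp downstream, had a region in replicate 2 and none in replicate 1.

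Of the remaining 4 of the 10 strongest below the threshold, *col-159* and *col-160* shared 1 region (V, 13202153 to 13202442, rank 9267). They are annotated on the same strand with 5′ ends close together, so the summit was 121 bp upstream of *col-159* and 106 bp upstream of *col-160*, and neither had a region in replicate 1. *col-151* (rank 9509) had its summit at -338 bp, and at -102 bp from *ugt-1*, the nearer gene. *col-138* (rank 9515) was nearest to the piRNA gene *21ur-2624*. *col-3* and *col-117*, a divergent pair, shared the other region that served 2 members (rank 10744), in a stretch where only 48.0% and 50.9% of positions around their 5′ ends were unique.

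Summits of the pooled regions lay on both sides of the collagen 5′ ends. The strongest region was upstream at 36 of 51 members (70.6%, interval 56.2 to 82.5) and at 76.0% of protein-coding genes with a region. Its median position was -121 bp (quartiles -292.5 and 51.5), against -146 bp (-273 and -10) at protein-coding genes. The collagen gene's own 5′ end was the nearest annotated one at 41 of 51 members (80.4%), against 80.6% of protein-coding genes. Of the 5 thresholded peaks this held for 1, and the 80.6% does not apply to thresholded peaks. With thresholded peaks given to their nearest 5′ end only, the share of members fell from 2.96% to 0.592%. That of protein-coding genes fell from 8.94% to 6.02%.

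**Figure D3:**
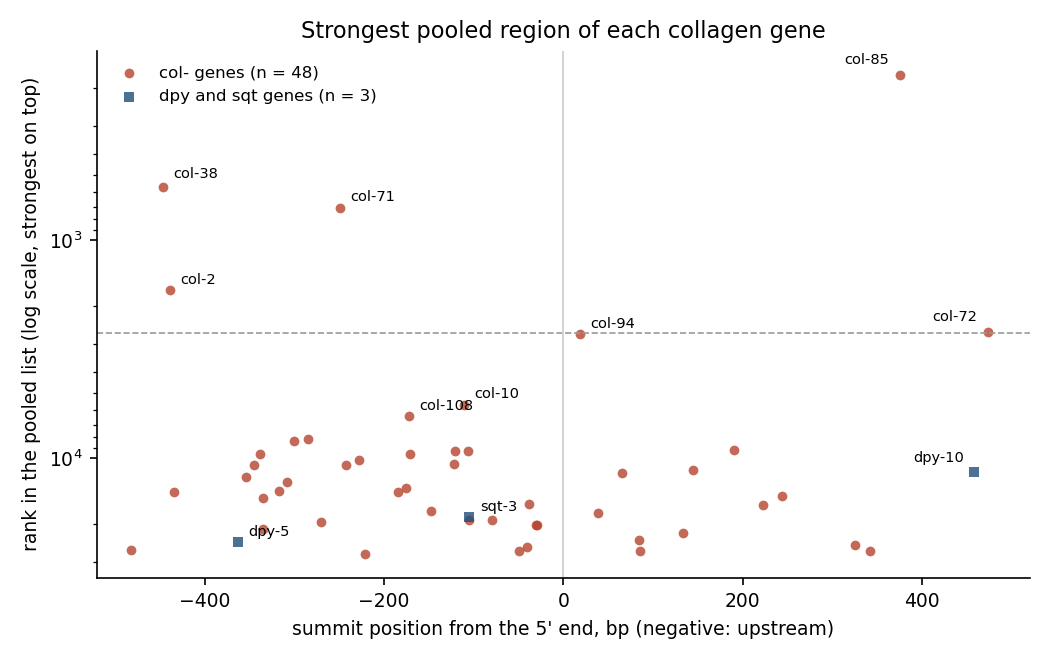
Rank of the strongest pooled region of each collagen gene (vertical axis, log scale, strongest on top) against the position of its summit in bp from the 5′ end (horizontal axis, negative upstream), for 48 col- genes (red circles) and for dpy-10, sqt-3 and dpy-5 (blue squares); the dashed line marks rank 2672. The 5 members above the line lie 249 to 473 bp from the 5′ end, and the strongest dpy or sqt region, at dpy-10, has rank 11606.

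The 13 collagen genes with a body-shape or blister name had weak regions or none, but their intervals held the shares of protein-coding genes. A pooled region was found at 23.1% of the 13 (interval 5.04 to 53.8), against 34.8% of protein-coding genes. In replicate 2 it was 38.5% (13.9 to 68.4), against 36.8%. For thresholded peaks the interval was 0 to 24.7%, against 8.94%. Of these genes 5 encode collagens of the annular furrows of the cuticle (*dpy-2*, *dpy-3*, *dpy-7*, *dpy-8* and *dpy-10*), and 1 of the 5 had a pooled region (20.0%, interval 0.505 to 71.6, against 34.8% of protein-coding genes). In replicate 2 it was 4 of the 5 (80.0%, interval 28.4 to 99.5, against 36.8%). *dpy-10*, best known as a co-conversion marker in genome editing, had signal 10.3 (rank 11606) in the pooled list, 7.40 (rank 11841) in replicate 1 and 2.54 (rank 28073) in replicate 2. The summits of these strongest regions were 458 bp downstream in the pooled list, 448 bp downstream in replicate 1 and at -407 bp, upstream, in replicate 2. The window held 2 pooled and 3 replicate 1 regions, and the summits of the weaker ones were not compared. *dpy-3* (rank 14606), *dpy-2* (rank 22091) and *dpy-8* (rank 28784) had a region in replicate 2 alone. *dpy-7*, whose promoter is widely used to drive epidermal expression, had none in any list.

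Of 6 other body-shape collagens, *sqt-3* and *dpy-5* had a pooled region, which is 33.3% against 34.8% of protein-coding genes. *sqt-3* had it at rank 18629 with no region in either replicate, and *dpy-5* at rank 24167 with replicate 1 alone behind it (rank 24106). *sqt-2* had a region in replicate 1 alone (rank 27042) and *dpy-13* in replicate 2 alone (rank 25694). *sqt-1* and *rol-6*, in which mutations make worms roll along their long axis, had no region in any list. Nor did *bli-1* and *bli-2*, which encode collagens of the struts in the adult cuticle and whose mutants form blisters. Around the 5′ ends of these 13 genes between 98.3% and 100% of positions were unique.

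The replicate lists gave similar shares but not the same genes. A region lay within 500 bp of 51 members in replicate 1 (30.2%, against 35.6% of protein-coding genes) and of 57 in replicate 2 (33.7%, against 36.8%). Both lists had a region at 24 members, or 14.2% (interval 9.32 to 20.4), against 22.3% of protein-coding genes. At 19 of these the pooled list had a region too (11.2% of members, against 20.3% of protein-coding genes). A further 27 members had one in replicate 1 alone and 33 in replicate 2 alone. Together these 60 members are 35.5% of the list, against 27.9% of protein-coding genes with a region in 1 replicate list. No region in either list was found at 85 members (50.3%), against 49.8% of protein-coding genes. In all, 82 members (48.5%) had no region in any of the lists. That share was not counted over protein-coding genes, so it cannot be read as particular to collagen genes.

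Among the 24 members with a region in both replicates, summits lay within 150 bp of each other at 14, against 3289 of 4446 protein-coding genes. The median gap was 117.5 bp, against 48 bp at 4446 protein-coding genes. The ranks correlated with a Spearman coefficient of 0.67 and a Pearson coefficient of 0.63 over these 24 genes, and with 0.76 and 0.57 over the 4446. Both lists were made with the same control alignment, per the deposited readme files. When only as many of the strongest regions as there are thresholded peaks were kept, replicate 1 had 4 members (*col-85*, *col-71*, *col-38* and *col-94*), or 2.37% against 8.61% of protein-coding genes. Replicate 2 had 5, or 2.96% against 8.83%. These 5 were *col-85*, *col-38*, *col-71*, *col-2* and *col-72*, so *col-85*, *col-38* and *col-71* were in both. That is 1.78% of members, against 6.4% of protein-coding genes.

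**Figure D4:**
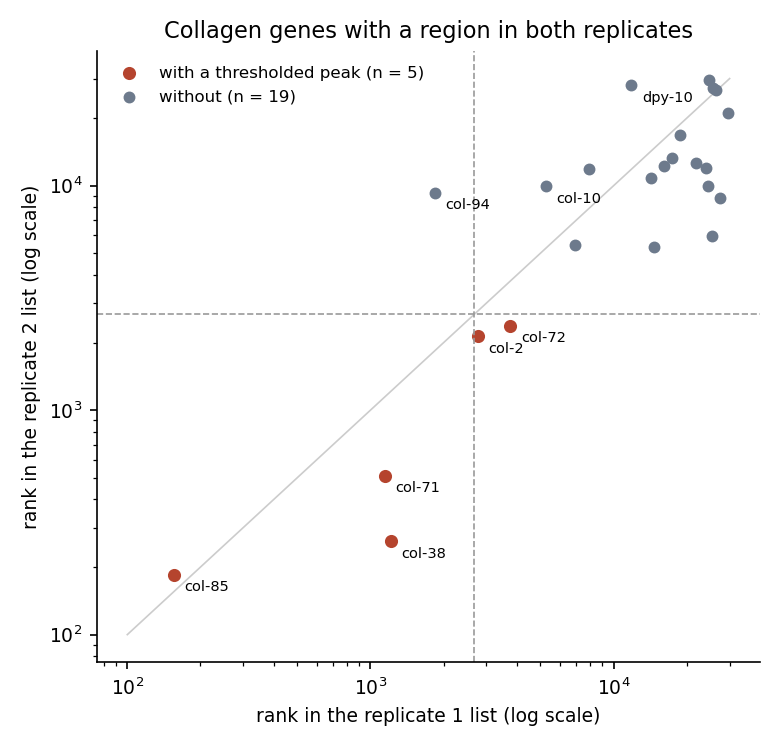
Rank in replicate 2 (vertical axis) against rank in replicate 1 (horizontal axis), both on log scales, of the strongest region at each of the 24 collagen genes with a region in both lists; red points have a thresholded peak (n = 5), grey points do not (n = 19), the dashed lines mark rank 2672 and the diagonal equal ranks. col-85, col-38 and col-71 lie inside both limits, and col-94 is at rank 1840 in replicate 1 but 9322 in replicate 2.

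By chromosome, the interval of every collagen share with a thresholded peak held the share of protein-coding genes there, and differences between chromosomes were not tested. Chromosome II held 4 of the 5, at 12.9% of its 31 collagen genes (interval 3.63 to 29.8), against 8.36% of protein-coding genes there. The other was on IV, at 1 of 42 collagen genes (2.38%, interval 0.0603 to 12.6), against 9.39%. Chromosomes I (22 collagen genes), III (12), V (32) and X (30) had none, where 13%, 11.9%, 6.39% and 6.7% of protein-coding genes had a peak. Pooled regions of any rank were found at 22.7% of collagen genes on I, 32.3% on II, 33.3% on III, 28.6% on IV, 43.8% on V and 20.0% on X. The protein-coding values in the same order were 37.9%, 31.3%, 39.0%, 39.8%, 29.4% and 35.5%. No collagen gene on X had a region in both replicates (0 of 30, interval 0 to 11.6), against 21.8% of 2730 protein-coding genes on X. On I this was 1 of 22 (4.55%, interval 0.115 to 22.8), against 26.3%. The collagen share was 25.8% on II, against 20.8%, and 33.3% on III, against 27.0%. It was 14.3% on IV, against 24.4%, and 15.6% on V, against 17.3%. The intervals on the collagen shares are wide, since each chromosome holds 12 to 42 members.

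**Figure D5:**
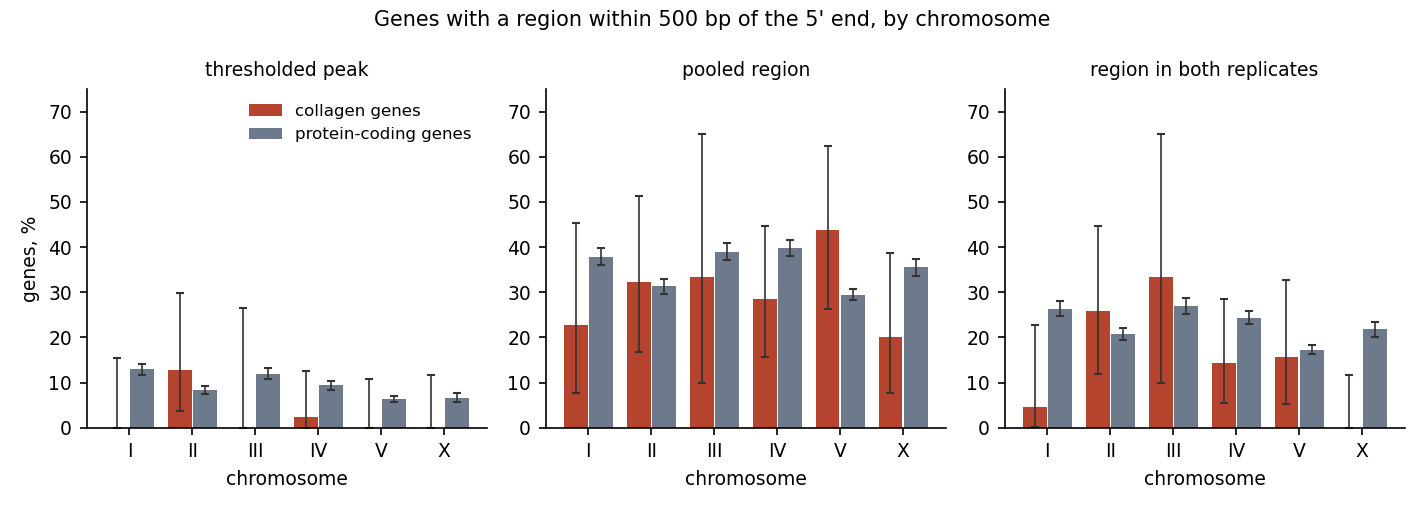
Percent of collagen genes (red, left bar) and protein-coding genes (grey, right bar) on each chromosome with a thresholded peak, a pooled region, or a region in both replicate lists within 500 bp of the 5′ end; error bars are exact 95% intervals over genes. Collagen genes reach 12.9% with a thresholded peak on II and 0% on I, III, V and X, and 0 of 30 on X had a region in both replicates.

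The surroundings of collagen genes were much like those of other genes, with some differences. Another annotated 5′ end within 1000 bp was absent at 106 of 169 members (62.7%) and at 61.8% of protein-coding genes. Of these 106 isolated members, 1 had a thresholded peak (0.943%, interval 0.0239 to 5.14), against 4.92% of isolated protein-coding genes. Of the 63 members with another 5′ end that close, 4 had a thresholded peak (6.35%, interval 1.76 to 15.5), against 15.4% of such protein-coding genes. Both intervals held the protein-coding share. A noncoding RNA or pseudogene started within 1000 bp of 50 members (29.6%), against 18.6% of protein-coding genes. A piRNA gene did so at 10 members (5.92%, against 5.04%). Collagen genes were short, with a median length of 1219 bp against 2006 bp. The 5′ end was annotated as partial at 27.8% of members and 35.6% of protein-coding genes, and at such genes the window may not be centred on the start of transcription.

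Reads from repeated sequence cannot be placed with certainty, and few members were in such sequence. At 166 of 169 members at least 50% of positions within 500 bp of the 5′ end started a 31-base word found once in the nuclear genome. The exceptions were *col-62*, *col-3* and *col-126*. All positions were unique at 85 members (50.3%), against 65.8% of protein-coding genes. The shares with a thresholded peak without the 3 exceptions were 3.01% of members and 9.21% of protein-coding genes with at least 50% unique positions.

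Collagen promoters were also compared with all promoters by the words they hold, on both strands, from 250 bases before to 50 bases after the 5′ end. The words AGACGCAG, GAGAGAGA and CACACACA were taken because they were frequent at the summits of these peaks in earlier work on the same lists. AGACGCAG was present at 9 members (5.33%, against 3.53% of protein-coding genes), among them *col-71*, *dpy-10* and *sqt-1*. GAGAGAGA was present at 11 (6.51%, against 3.46%), among them *col-38* and *dpy-13*, and CACACACA at 2 (1.18%, against 2.34%). The tRNA B box word was in 1 collagen promoter, that of *col-104*, which is 0.592% against 0.17%. In the nuclear thresholded peaks AGACGCAG was present in 16.7% and CACACACA in 9.98%. The region of *col-71* held none of these words, so the match in its promoter lay outside the region.

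TATAAA, the core of the TATA box that places the start of transcription at many RNA polymerase II genes, was searched for after it had been seen at *col-94*. There the word overlaps the annotated 5′ end, and the counts below include it. It was present in 113 of 169 collagen promoters (66.9%), against 37.9% of protein-coding promoters. On the gene's own strand it started 1 to 60 bases before the 5′ end at 73 members (43.2%), against 9.63% of protein-coding genes. The last such word before the 5′ end began at a median of -40 at 97 collagen genes and -79 at 4506 protein-coding genes. Of the 113 collagen genes with the word, 39 (34.5%) had a pooled region and 4 (3.54%) a thresholded peak. Of the 56 without it, 12 (21.4%) had a pooled region and 1 (1.79%), *col-38*, a thresholded peak. The shares over all protein-coding genes were 34.8% and 8.94%. They were not split by the word, and the difference among collagen genes was not tested. The median GC content of the promoters was 38% at collagen genes and 34.3% at protein-coding genes.

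Other genes of the cuticle were counted from lists that do not overlap the members. Among 7 further cuticle collagens (*dpy-4*, *dpy-9*, *dpy-14*, *dpy-17*, *lon-3*, *bli-6* and *rol-8*), 1 had a thresholded peak (14.3%, interval 0.361 to 57.9, against 8.94% of all protein-coding genes). It was *bli-6*, with signal 75.3 at rank 560 in the pooled list, rank 757 in replicate 1 and rank 443 in replicate 2, and the summit at -331 bp. Of 15 genes for collagen processing and cuticle crosslinking 2 had a peak (13.3%, interval 1.66 to 40.5), both for protein disulfide isomerases. *pdi-6* had signal 90.8 (rank 392, summit 39 bp upstream) and *pdi-1* had signal 39.1 (rank 1789, summit 290 bp upstream). The prolyl 4-hydroxylase gene *dpy-18*, the protease genes *bli-4* and *dpy-31* and the dual oxidase gene *bli-3* had none. Below the threshold, *dpy-18* had a pooled region at rank 16928 and *pdi-2* at rank 3558, with *pdi-2* at rank 2514 in replicate 1 and 5215 in replicate 2. The further collagen *dpy-4* had one at rank 3395. Among 35 cuticlin genes, which encode non-collagen proteins of the cuticle, 0 had a peak. The basement membrane collagen genes *emb-9* and *let-2*, and *cle-1*, had no region in any list. Of 10 epidermal and moulting regulators *myrf-1* had a peak (signal 39.2, rank 1785, interval 0.253 to 44.5% for 1 of 10). The genes *nhr-23*, *nhr-25*, *blmp-1* and *lin-29* had no thresholded peak. Below the threshold, *blmp-1* had a pooled region at rank 6100, with rank 5084 in replicate 1 and 6803 in replicate 2. *lin-29* had no region in any list. The interval of each of these shares held the 8.94% of protein-coding genes, and for the cuticlin genes its upper end was 10%. Pooled regions of any rank were found at 3 of the 7 further collagens (interval 9.9 to 81.6%), 6 of the 15 processing genes (16.3 to 67.7%), 7 of the 35 cuticlin genes (8.44 to 36.9%) and 5 of the 10 regulators (18.7 to 81.3%). Each interval held the 34.8% of protein-coding genes. Whether another 5′ end lay nearer to the summits at *bli-6*, *pdi-6*, *pdi-1* and *myrf-1* was not examined.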

How the data were processed

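The ce11 lists of regions were used as the authors deposited them: a list thresholded by the irreproducible discovery rate (IDR), a list for the pooled replicates and 1 list per replicate, each made with a control alignment, per the readme files deposited with them. The lists on ce10 were not used. The deposited signal value of each region ranked regions within a list. The deposited −log10 q-value was used for 1 limit, a q-value of at most 0.05. The aligner, the peak caller and the IDR limit are not named in the labels or readme files. All 2672 thresholded peaks were the strongest regions of the pooled list.

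Gene 5′ ends came from the RefSeq annotation of WBcel235; genes and words were counted on nuclear chromosomes, which hold 2646 of the thresholded peaks. A region counted for every gene with a 5′ end within 500 bp of its summit, and each gene took its strongest region. The uniqueness of 31-base words was counted over both strands of the nuclear genome. Tools were Python 3.11.15, pandas 2.3.3, numpy 2.4.6, scipy 1.17.1 and matplotlib 3.10.9. The steps were tested on simulated data. Members, gene lists and words were chosen with earlier results of these data known. The rule for genes named took all members with a thresholded peak, the 10 strongest below it, and all members without a col- name; *col-3*, *col-117*, *col-62*, *col-126* and *col-104* were named after their values were seen. The gene *ram-4* of 1 list had no match. Alternatives were windows of 250 and 1000 bp, whole intervals, transcript 5′ ends, nearest 5′ ends, single replicates, the stronger 50% of each list, and unique members.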

Additional observations from a re-analysis of the deposited data

How the results depend on the processing

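There were 9 alternatives. The share of collagen genes with a thresholded peak, a pooled region or a region in both replicates was below that of protein-coding genes in the analysis reported and in all 9. The 5 genes with a thresholded peak became 1 with a window of 250 bp (0.592%, against 5.82% of protein-coding genes), 1 with nearest 5′ ends only (0.592%, against 6.02%), and 3 in the stronger 50% of the list (1.78%, against 5.25%). Pooled regions were found at 31 members at 250 bp (18.3%, against 22.2%) and 29 in the stronger 50% (17.2%, against 23.4%). Regions in both replicates were found at 11 members at 250 bp (6.51%, against 12.2%), 44 at 1000 bp (26.0%, against 34.4%) and 11 in the stronger 50% of each list (6.51%, against 15.4%). The median rank was 16192 with nearest 5′ ends only and 9515 in the stronger 50%, which by construction holds no rank above 15000. The median position was -249 bp at 1000 bp and -176 bp in the stronger 50%. With 1 replicate list alone, its 2672 strongest regions stood in for the thresholded peaks, and 4 or 5 members had one. Counts of regions then ran from 51 to 57 (the count for both replicates being that of the single list). Median ranks ran from 12612 to 14713 and median positions from -204 to -131 bp. The causes of these shifts were not tested. Depth is unknown, so a member without a region may be bound below what these lists could show. No paired analysis was possible because there was only 1 group.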
